A study of Mus musculus with 32 samples.

Results

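Genes of the fibroblast growth factor (FGF) family, 10 in all, were followed through whole lungs of neonatal mice: the ligands Fgf1, Fgf2, Fgf7, Fgf9, Fgf10 and Fgf18 and the receptors Fgfr1, Fgfr2, Fgfr3 and Fgfr4. The members were chosen by gene name, as every array probe annotated to 1 of these 10 genes, which gave 18 of the 55681 probes on the array. RNA came from 32 C57Bl/6J mice, of both sexes per the methods, 4 in each of 8 groups, aged P5 or P14, kept in 21% O2 (room air) or 85% O2 (hyperoxia), and injected with a scrambled antimiR (SCR) or with antimiR-34a (A34a), a locked nucleic acid oligonucleotide that inhibits microRNA-34a. The extract protocol in the labels gives the ages as P5.5 and P14.5. Every mouse of every group thus received an oligonucleotide, so that no uninjected lung was compared. The hyperoxia groups are an animal model of bronchopulmonary dysplasia, the chronic lung disease of preterm infants. Lungs were perfused before RNA was taken, and tissue was not sorted, so a lower level from fewer cells of a type and one from less RNA per cell cannot be told apart.

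FGF ligands are secreted proteins that bind, together with heparan sulfate on the cell surface, to receptor tyrosine kinases, which relay the signal through the RAS-ERK cascade to ETS transcription factors and are held back by Sprouty and related inhibitors. In the lung, mesenchymal Fgf10 and Fgf7 act on the epithelial isoform of Fgfr2, which drives branching and epithelial growth, and Fgf9 signals from mesothelium and epithelium to mesenchyme. Fgfr3 and Fgfr4 together are needed for normal formation of alveoli after birth, and Fgf18 is a mesenchymal ligand of late lung development.

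Levels are log2 intensities minus the 75th percentile of the same array, so that 0 is the brightness of the probe at that percentile. They compare arrays for 1 probe and do not rank genes, because probes differ in how strongly they bind. Where a gene had several probes, its brightest tested probe stood for it. Its other tested probes are given beside it in the oxygen comparisons of SCR mice and, for some results, in the other comparisons. A gene was called where the adjusted p of limma (Benjamini-Hochberg over all probes tested) was below 0.05. Probes well above background numbered between 33616 and 40788 per array. The 4 slides each held the arrays of 1 age and oxygen level, so slide and oxygen, and slide and age, cannot be told apart, and antimiR-34a and scrambled arrays lay in different rows of a slide. Lung markers were present in all groups, with 5 of 5 type I, 5 of 5 type II and 5 of 5 endothelial marker genes tested at both ages. Array P5, 21% O2, SCR replicate 4 carried skeletal muscle markers (mean log2 level 3.49, against -2.46 to -1.19 on the other 3 arrays), and 5 other arrays stood apart by fat markers, brightness or distance from their group. Counts of members called were therefore also computed without these 6 arrays, a set chosen after the values were seen.

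**Figure D1:**
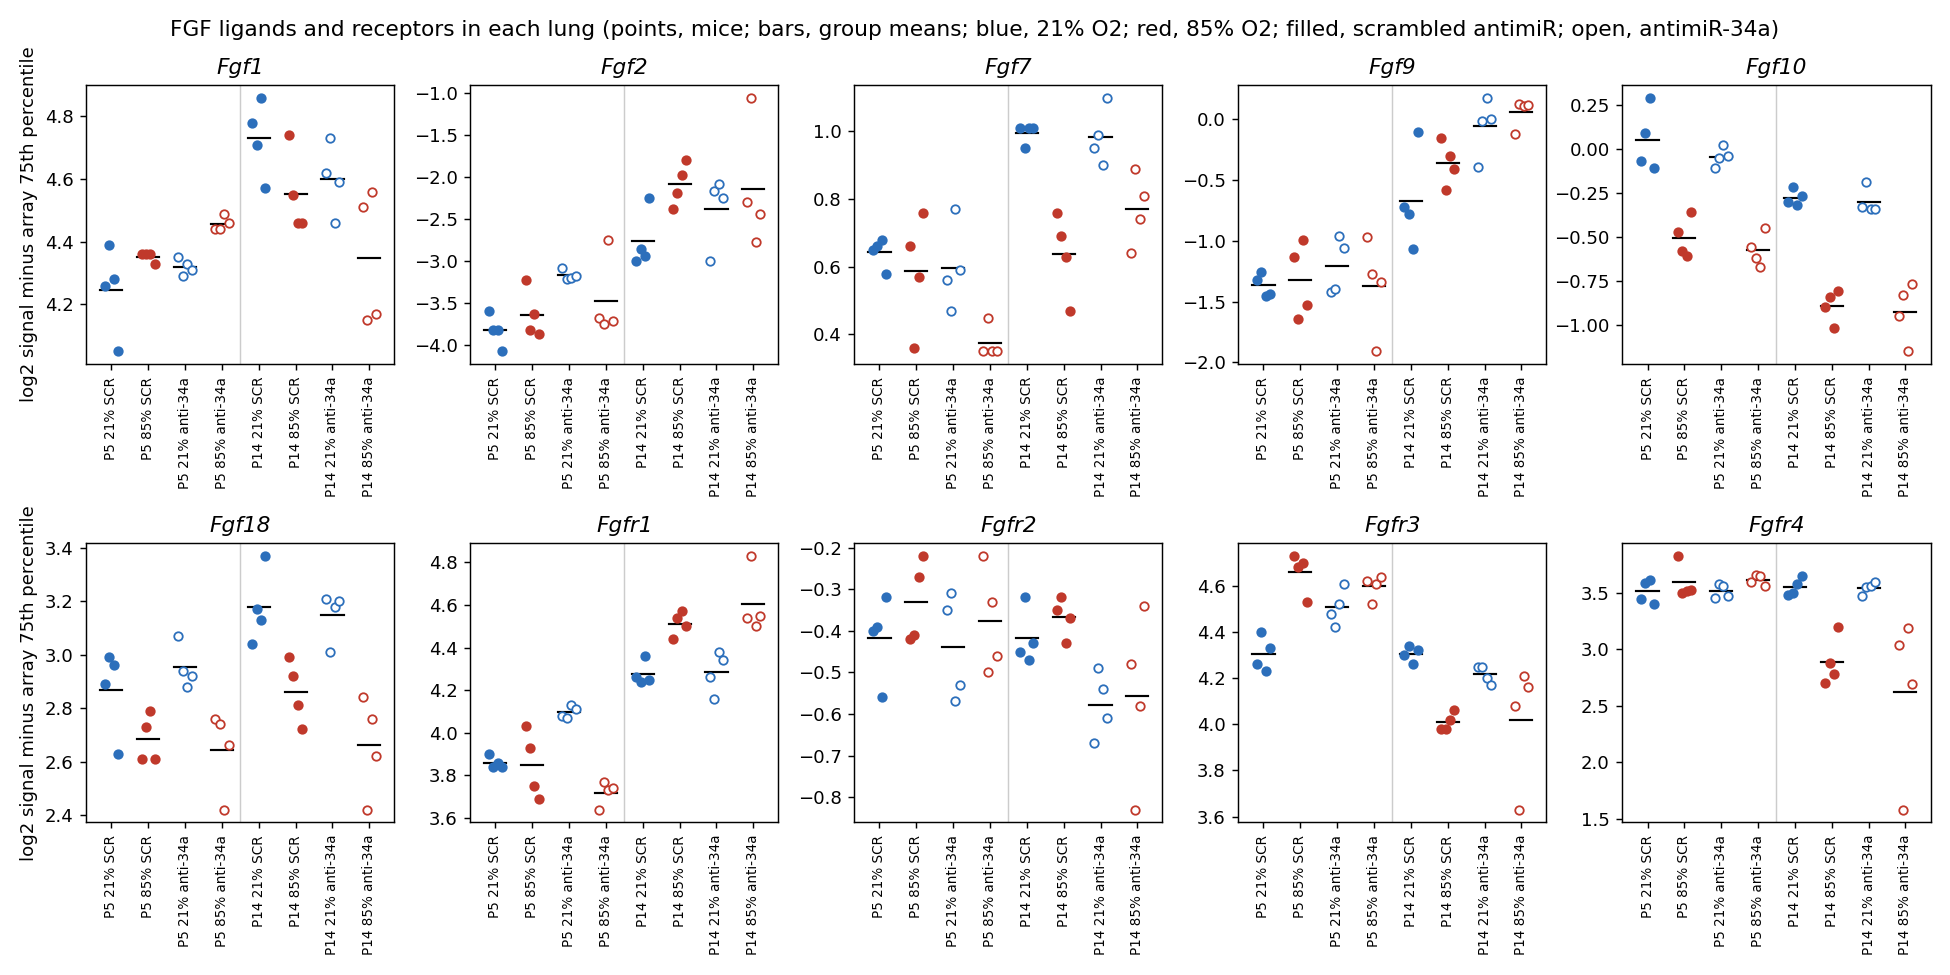
Level of the brightest tested probe of each of the 10 genes (y axis, log2, scaled by the array's 75th percentile), with 1 point per mouse and a bar for the mean of 4 mice in each of the 8 groups. In the scrambled antimiR mice in 85% O2, Fgf10 was lower at both ages, Fgfr3 was higher at P5 but lower at P14, and Fgfr4 was lower at P14.

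Among the scrambled antimiR mice at P5, 2 of the 10 genes were called between oxygen levels, with Fgf10 lower and Fgfr3 higher in 85% O2. Over all probes tested at P5, 43.9% were called (17.4% higher and 26.5% lower), so 2 of 10 was a smaller share than that of the array. At P14, 6 of 10 were called, with Fgf7, Fgf10, Fgf18, Fgfr3 and Fgfr4 lower and Fgfr1 higher. The share over all probes at P14 was 60.8% (28.1% higher and 32.7% lower), so that the count was near the background while 5 of the 6 calls ran in the lower direction. The median log2 difference of the 10 genes was 0.06 at P5 and -0.24 at P14. Without the 6 arrays named above, 3 genes were called at P5 (Fgf18 lower was added, adjusted p = 0.0074) and 7 at P14, where Fgf2 (0.82, adjusted p = 0.00279) and Fgf9 (0.56, adjusted p = 0.00696) were added and Fgfr1 was lost (adjusted p = 0.0573), while 44.1% of all probes were called at P5 and 50.5% at P14.

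Fgf10, the mesenchymal ligand that drives epithelial growth through Fgfr2, was lower in 85% O2 at both ages. In SCR mice at P5 its levels were -0.07, 0.09, 0.29 and -0.11 in 21% O2 and -0.47, -0.58, -0.61 and -0.36 in 85% O2. At P14 they were -0.30, -0.22, -0.32 and -0.27 in 21% O2 and -0.90, -0.84, -1.02 and -0.81 in 85% O2. At each age all 4 hyperoxic lungs lay below all 4 lungs in 21% O2, and groups that did not overlap were common in these comparisons, at 39.1% of all probes for P5 and 56.7% for P14. Fgf10 fell by 0.56 ± 0.09 (log2, SE) at P5, 1.47-fold (adjusted p = 0.000158), and by 0.62 ± 0.08 at P14, 1.54-fold (adjusted p = 2.17e-05). The difference between the ages' oxygen effects was -0.06 ± 0.12 (95% confidence interval -0.30 to 0.18, adjusted p = 0.694). In antimiR-34a mice, Fgf10 fell by 0.53 at P5 (adjusted p = 0.000193) and by 0.63 at P14 (adjusted p = 1.61e-05). Its probe lies at chr13:119580365-119580424 of mm9 and was printed in 10 spots per array. The 250 bases before the annotated start of Fgf10 are shown because the gene fell in all 4 oxygen comparisons:
Fgf10 (chr13:118714449-118714698, plus strand, GRCm38.p6, RefSeq): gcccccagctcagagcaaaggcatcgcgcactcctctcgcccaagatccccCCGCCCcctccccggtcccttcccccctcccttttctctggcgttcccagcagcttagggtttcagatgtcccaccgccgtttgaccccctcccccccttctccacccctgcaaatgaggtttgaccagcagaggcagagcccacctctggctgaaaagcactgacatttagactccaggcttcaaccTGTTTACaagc
Capitals mark motifs that were searched on both strands of these windows, namely GGGCGG (an SP/KLF box), TGTTTAC (a forkhead site), CCGGAA (an ETS site), ACGTG (hypoxia response core), TGACNNNGC (antioxidant response core) and TATAAA. No match in the printed windows overlapped another. The Fgf10 window was 61.2% G or C with 8 CpG, against medians of 52.4% and 6 over the 32851 promoters in RefSeq. It held 1 SP/KLF box 199 bases before the start, and 1 forkhead site 11 bases before it, which 32.7% and 3.17% of all promoters hold at least once. RefSeq promoters were matched for 8 of the 10 genes.

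Fgf7, keratinocyte growth factor, binds the same epithelial isoform as Fgf10 and supports growth of type II cells. At P5 its level was 0.65, 0.66, 0.68 and 0.58 in 21% O2 and 0.66, 0.36, 0.57 and 0.76 in 85% O2, and the groups overlapped. At P14 it was 1.01, 0.95, 1.01 and 1.01 in 21% O2 and 0.76, 0.69, 0.63 and 0.47 in 85% O2, where every hyperoxic lung was lower. The log2 difference was -0.06 ± 0.08 at P5 (adjusted p = 0.592) and Fgf7 fell by 0.36 ± 0.07 at P14, 1.28-fold (adjusted p = 0.001). The oxygen effect on Fgf7 differed between the ages, by -0.30 ± 0.11 (adjusted p = 0.0276), a call lost in 4 of 32 fits that each left out 1 array and in 3 of 11 alternatives (adjusted p up to 0.126). In antimiR-34a mice Fgf7 fell at both ages, by 0.22 (adjusted p = 0.0358) and 0.21 (adjusted p = 0.0226). The P5 call was lost in 6 of 16 fits that left out 1 array (adjusted p up to 0.116) and kept in 7 of 12 alternatives. The probe lies at chr2:125916134-125916193 of mm9. The promoter of Fgf7 is shown beside that of Fgf10 because both ligands fell at P14 and both use the same receptor:
Fgf7 (chr2:126034408-126034657, plus strand, GRCm38.p6, RefSeq): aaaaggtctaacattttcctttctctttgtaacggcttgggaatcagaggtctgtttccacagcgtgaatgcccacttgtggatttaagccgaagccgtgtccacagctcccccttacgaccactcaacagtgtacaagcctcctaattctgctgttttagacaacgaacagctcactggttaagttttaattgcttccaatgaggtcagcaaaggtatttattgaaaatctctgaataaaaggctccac
At 43.6% G or C with 6 CpG it held none of the motifs searched, so no base is in capitals, which says only that these letters are not in this window.

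Fgf18, made by mesenchyme while alveoli form, had levels of 2.89, 2.99, 2.96 and 2.63 in 21% O2 and 2.61, 2.73, 2.79 and 2.61 in 85% O2 at P5. At P14 they were 3.04, 3.17, 3.13 and 3.37 in 21% O2 and 2.99, 2.92, 2.81 and 2.72 in 85% O2. The P5 groups overlapped, since the lowest normoxic lung (replicate 4, the array with skeletal muscle markers) lay among the hyperoxic ones, and the P14 groups did not. The log2 difference was -0.18 ± 0.09 at P5 (adjusted p = 0.125), and Fgf18 fell by 0.32 ± 0.10 at P14, 1.24-fold (adjusted p = 0.0137). The second Fgf18 probe, which starts 34 bases from the first and so shares bases with it, gave -0.29 at P5 (adjusted p = 0.0219) and -0.38 at P14 (adjusted p = 0.0065). In antimiR-34a mice the first probe fell by 0.31 (adjusted p = 0.0135) and 0.49 (adjusted p = 0.000627). The 250 bases before the Fgf18 start, on chromosome 11, were 77.2% G or C with 37 CpG and held 1 SP/KLF box.

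Fgf1, Fgf2 and Fgf9 were not called between oxygen levels in SCR mice at either age. Fgf1, a broad ligand that binds all the receptors, had P5 levels of 4.26, 4.39, 4.28 and 4.05 in 21% O2 and 4.36, 4.36, 4.36 and 4.33 in 85% O2, with P14 levels of 4.78, 4.71, 4.86 and 4.57 and of 4.74, 4.55, 4.46 and 4.46 in turn. Its differences were 0.11 ± 0.06 (adjusted p = 0.171) and -0.18 ± 0.11 (adjusted p = 0.174), with 95% confidence intervals of -0.02 to 0.24 and -0.41 to 0.06. The second Fgf1 probe gave 0.37 at P5 (adjusted p = 0.0622) and -0.04 at P14 (adjusted p = 0.884), and 1 of 12 alternatives called Fgf1 at P5, the mean of its probes (0.24, adjusted p = 0.049). At P14, 3 of 12 alternatives called Fgf1, with -0.39 to -0.11 over the 12 (adjusted p 0.0111 to 0.534). Fgf2, a mitogen of fibroblasts and endothelium stored in matrix, was faint, at -3.59, -3.81, -3.81 and -4.07 in 21% O2 and -3.22, -3.82, -3.63 and -3.86 in 85% O2 at P5. At P14 Fgf2 stood at -2.99, -2.85, -2.94 and -2.24 in 21% O2 and at -2.38, -2.18, -1.97 and -1.79 in 85% O2, a difference of 0.68 ± 0.32 that did not pass the test (adjusted p = 0.0799, 95% confidence interval -0.01 to 1.36). Of 12 alternatives 6 called it, all 12 in the higher direction (0.39 to 0.82, adjusted p 0.00279 to 0.269), as did 2 fits that left out 1 array. In 5 of 8 groups the highest Fgf2 level came from the dimmest array, and in 5 of 8 the lowest came from the brightest, and the part of array brightness in the Fgf2 values was not tested beyond a fit with brightness as a covariate (0.39, adjusted p = 0.269). The second Fgf2 probe was above background on 2 arrays and was not tested. Fgf9, the signal from mesothelium and epithelium, had levels between -1.64 and -0.99 in the 8 SCR lungs at P5, a difference of 0.04 ± 0.19 (adjusted p = 0.868). At P14 the Fgf9 levels were -0.72, -0.78, -1.07 and -0.10 in 21% O2 and -0.15, -0.58, -0.30 and -0.41 in 85% O2. The difference was 0.31 ± 0.18 (adjusted p = 0.146), and with the highest normoxic array (replicate 4, also dimmer than the others) left out it was 0.49 (adjusted p = 0.00941), past the threshold.

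**Figure D2:**
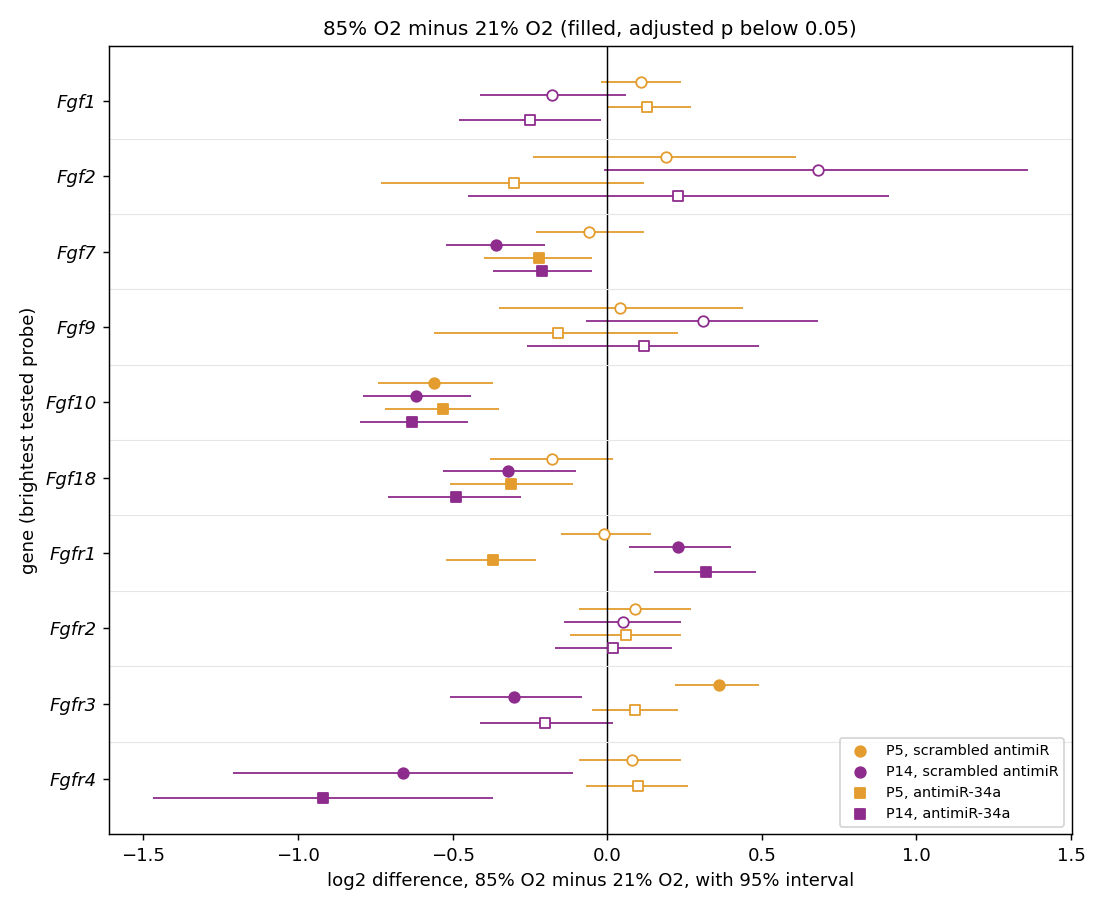
Log2 difference of 85% O2 against 21% O2 for each of the 10 genes at P5 and at P14 in the scrambled antimiR and antimiR-34a mice, with 95% confidence intervals from limma (4 mice per group) and a line at 0. The intervals of Fgf10 lie below 0 in all 4 comparisons, whereas Fgfr3 in SCR mice lies above 0 at P5 and below 0 at P14.

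In SCR mice, the response of Fgfr3 to 85% O2 turned direction between the ages. Its SCR levels at P5 were 4.26, 4.40, 4.23 and 4.33 in 21% O2 and 4.73, 4.68, 4.70 and 4.53 in 85% O2. At P14 they were 4.30, 4.34, 4.26 and 4.32 in 21% O2 and 3.98, 3.98, 4.02 and 4.06 in 85% O2. The normoxic lungs thus lay close to 4.31 at both ages, with the hyperoxic ones all above them at P5 and all below them at P14. Fgfr3 rose by 0.36 ± 0.06 at P5, 1.28-fold (adjusted p = 0.000493), and fell by 0.30 ± 0.10 at P14, 1.23-fold (adjusted p = 0.0195). The difference between these effects was -0.65 ± 0.12 (adjusted p = 8.91e-05, 95% confidence interval -0.89 to -0.41). In antimiR-34a mice the differences were 0.09 at P5 (adjusted p = 0.262) and -0.20 at P14 (adjusted p = 0.0968), neither of them called by the brightest probe, and whether the P5 effect differed between the antimiRs was tested as an interaction (-0.27 ± 0.09, adjusted p = 0.324). The second probe named Fgfr3 moved the same way, by 0.38 at P5 (adjusted p = 0.0153) and -0.90 at P14 (adjusted p = 1.47e-05), but is annotated to chr1:183022230-183022289 of mm9, while the brightest lies at chr5:34079649-34079708. In antimiR-34a mice that second probe rose by 0.40 at P5 (adjusted p = 0.0102) and fell by 0.66 at P14 (adjusted p = 0.000167). The 2 probes thus differed in their calls there, and whether the second reads Fgfr3 was not tested. The promoter is shown because this gene turned direction between the ages:
Fgfr3 (chr5:33721474-33721723, plus strand, GRCm38.p6, RefSeq): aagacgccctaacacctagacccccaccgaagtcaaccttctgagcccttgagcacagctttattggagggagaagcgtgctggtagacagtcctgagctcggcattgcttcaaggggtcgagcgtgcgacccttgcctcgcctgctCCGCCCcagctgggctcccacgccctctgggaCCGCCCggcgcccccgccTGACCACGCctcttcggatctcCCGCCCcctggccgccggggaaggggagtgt
This window was 66.8% G or C with 19 CpG, lies before 1 of 2 annotated starts, and held 3 SP/KLF boxes, at 103, 71 and 31 bases before the start, with an antioxidant response core at 53 bases, a motif that 10.2% of all promoters hold.

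Fgfr4, the receptor that acts beside Fgfr3 in alveolar formation, had levels of 3.45, 3.59, 3.62 and 3.40 in 21% O2 and 3.83, 3.50, 3.52 and 3.53 in 85% O2 at P5. At P14 it stood at 3.48, 3.50, 3.58 and 3.65 in 21% O2 and at 2.70, 2.88, 2.78 and 3.20 in 85% O2. The groups overlapped at P5 and were apart at P14. The difference at P5 was 0.08 ± 0.08 (adjusted p = 0.427), and at P14 Fgfr4 fell by 0.66 ± 0.26, 1.58-fold (adjusted p = 0.0379). In the same fit, 1 array of another group (P14, 85% O2, A34a replicate 2, at 1.58) lay far below the other 3 of its group (2.69 to 3.19). Without that array the same difference of -0.66 had an adjusted p of 0.00033, whereas in 7 of the 16 fits that left out 1 array each the call was lost (adjusted p up to 0.0867). The second Fgfr4 probe gave 0.16 at P5 (adjusted p = 0.0984) and -1 at P14 (adjusted p = 0.00259). Between the ages the oxygen effect differed by -0.74 ± 0.27 (adjusted p = 0.0332), lost in 6 of 32 such fits. In antimiR-34a mice Fgfr4 fell by 0.92 at P14 (adjusted p = 0.00599), and by 0.57 without replicate 2 of the hyperoxic group (adjusted p = 0.00167), with 0.10 at P5 (adjusted p = 0.324). Its promoter is given for comparison with that of Fgfr3:
Fgfr4 (chr13:55152568-55152817, plus strand, GRCm38.p6, RefSeq): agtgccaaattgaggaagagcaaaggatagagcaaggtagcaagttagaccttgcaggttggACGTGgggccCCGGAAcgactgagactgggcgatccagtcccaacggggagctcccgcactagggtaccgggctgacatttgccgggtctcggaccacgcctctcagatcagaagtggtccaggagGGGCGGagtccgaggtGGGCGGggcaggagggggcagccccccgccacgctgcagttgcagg
At 64% G or C with 15 CpG, it held a hypoxia response core at 188 bases, an ETS site at 178 bases and SP/KLF boxes at 62 and 46 bases before the start, motifs found in 16.6%, 12% and 32.7% of all promoters. The probe lies at chr13:55270033-55270092 of mm9.

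Fgfr1, the receptor of mesenchyme, was measured by 3 probes that did not move together. The brightest read 3.90, 3.84, 3.86 and 3.84 in 21% O2 and 4.03, 3.93, 3.75 and 3.69 in 85% O2 at P5, and 4.26, 4.24, 4.36 and 4.25 against 4.44, 4.54, 4.57 and 4.50 at P14. Its difference was -0.01 ± 0.07 at P5 (adjusted p = 0.94), and at P14 it rose by 0.23 ± 0.08, 1.18-fold (adjusted p = 0.0184), with all 4 hyperoxic lungs above the 4 in 21% O2. The rise at P14 was not called under 4 alternatives, with 0.03 (adjusted p = 0.741) after quantile normalization and 0.02 (adjusted p = 0.773) in the authors' table. Of the other probes, A_55_P1967022 gave -0.01 at P5 (adjusted p = 0.942) and -0.32 at P14 (adjusted p = 0.0274). Probe A_55_P1967015 fell at both ages, by 0.97 at P5 and 0.53 at P14 (adjusted p = 0.0186), but 54 of its 60 bases are G or T, a share that 0.0144% of all probes reach. The part of that base composition in its values was not tested. The 3 probes lie near each other on chromosome 8 (mm9), at chr8:26684061-26684120, chr8:26685072-26685131 (the brightest) and chr8:26685820-26685879. A direction for Fgfr1 at P14 thus depended on the probe, since the mean of its probes was -0.21. At P5 whether Fgfr1 was called depended on the probe too. The mean of its probes, the 1 of 12 alternatives that called it, gave -0.33 there (adjusted p = 5.62e-05). In antimiR-34a mice the brightest probe fell by 0.37 at P5 (adjusted p = 0.000486) and rose by 0.32 at P14 (adjusted p = 0.00259). At P14 the other Fgfr1 probes ran against it there, with -0.12 for A_55_P1967022 (adjusted p = 0.388) and -0.89 for A_55_P1967015 (adjusted p = 0.000596), and the mean of the probes was -0.23.

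Fgfr2, whose epithelial isoform receives Fgf7 and Fgf10, was not called at either age by its brightest probe. Levels lay between -0.56 and -0.22 in all 8 SCR lungs at P5 and between -0.47 and -0.32 at P14, with differences of 0.09 ± 0.08 (adjusted p = 0.416) and 0.05 ± 0.09 (adjusted p = 0.615). The 95% confidence intervals, -0.09 to 0.27 and -0.14 to 0.24, leave room for a change as large as that of Fgfr1 at P14. The second probe, which starts 18 bases from the first, gave 0.27 at P5 (adjusted p = 0.0587) and -0.29 at P14 (adjusted p = 0.0454). The array does not separate the epithelial from the mesenchymal isoform by any annotation used here.

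**Figure D3:**
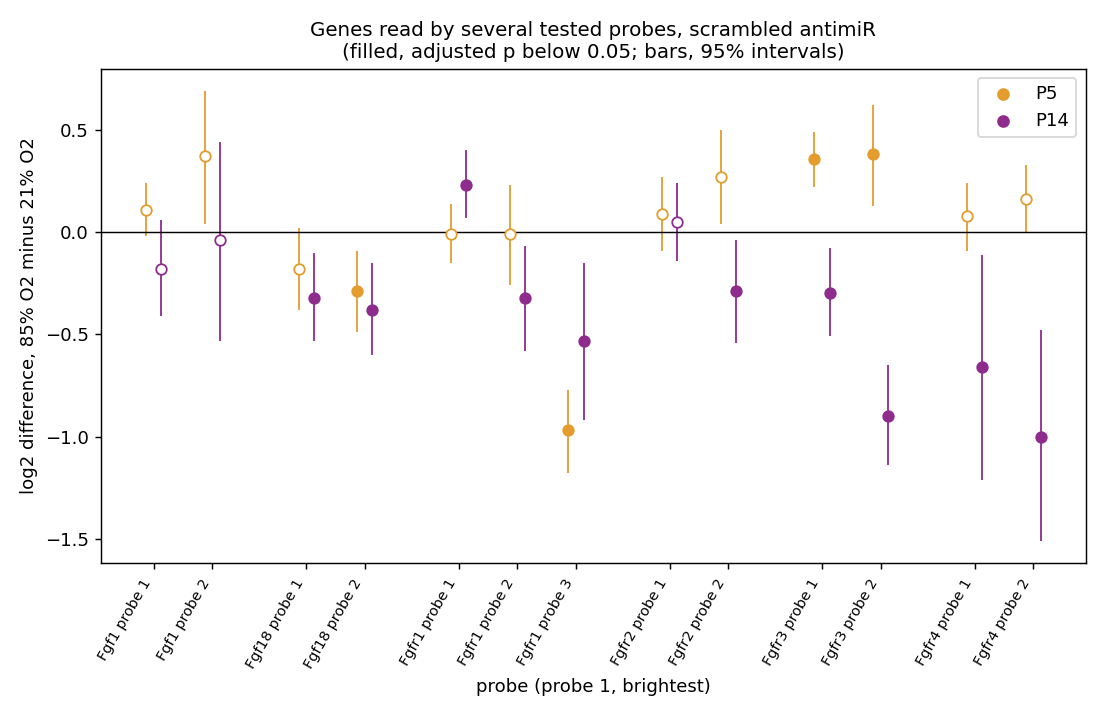
Log2 difference of 85% O2 against 21% O2 in scrambled antimiR mice for each tested probe of the members with several probes, at P5 and P14, with 95% confidence intervals (4 mice per group). The probes named Fgfr3 (the second annotated to chromosome 1) and those of Fgfr4 move the same way at P14, whereas the brightest Fgfr1 probe lies above 0 and the other Fgfr1 probes below it.

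Over the 17 tested probes, 5 were called at P5 and 12 at P14 in SCR mice, beside 43.9% and 60.8% of all probes. These probes are not independent readings, since the pairs of Fgf18 and of Fgfr2 share bases, and 1 named Fgfr3 is annotated to chromosome 1. In antimiR-34a mice 4 of the 10 genes were called at P5, all lower (Fgf7, Fgf10, Fgf18 and Fgfr1), with 46.6% of all probes called (17.1% higher and 29.5% lower). At P14, 5 were called there, Fgf7, Fgf10, Fgf18 and Fgfr4 lower and Fgfr1 higher, with 65.5% of all probes called (27.6% higher and 38% lower). The groups of SCR and of antimiR-34a mice are separate animals, so these counts rest on different samples.

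Normal growth between P5 and P14 was read from the SCR mice in 21% O2, in which 7 of 10 genes were called, 6 higher and 1 lower at P14, while 51.5% of all probes were called (27.7% higher and 23.8% lower). Fgf1 rose by 0.49 ± 0.09 (adjusted p = 4.75e-05), Fgf2 by 1.06 ± 0.27, 2.09-fold (adjusted p = 0.0022), and Fgf9 by 0.70 ± 0.19 (adjusted p = 0.00284). The rise of Fgf2 was 0.65 to 1.06 over 12 alternatives, all 12 calling it. Fgf7 rose by 0.35 ± 0.08 (adjusted p = 0.000414), Fgf18 by 0.31 ± 0.10 (adjusted p = 0.00817) and Fgfr1 by 0.42 ± 0.07 (adjusted p = 2.05e-05). Fgf10 was the member that fell with age, by 0.33 ± 0.08 (adjusted p = 0.00179). By the methods' t-test 4 of these 7 were called, and Fgf9, Fgf10 and Fgf18 were not (adjusted p = 0.0777, 0.0683 and 0.063), with 40.3% of all probes called by that test. Of the other probes, that of Fgf1 rose by 0.82 (adjusted p = 0.00121), that of Fgf18 gave 0.23 (adjusted p = 0.0515), and those of Fgfr1 gave 0.71 (adjusted p = 1.73e-05) and -0.22 (adjusted p = 0.21). Fgfr2, Fgfr3 and Fgfr4 gave 0.00, 0.00 and 0.03 (adjusted p = 0.984, 0.989 and 0.897), the Fgfr4 interval being -0.36 to 0.43. Their second probes, none of them called, had means of -1.8, -0.32 and -0.3 at P5. At P14 these means were -1.59, -0.19 and -0.04 in turn. Because these 7 calls share the normoxic groups with the oxygen comparisons, the values are given side by side and not related to each other.

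The oxygen effect differed between the ages for 3 of 10 genes, Fgf7, Fgfr3 and Fgfr4, all lower at P14 relative to P5, while 40.8% of all probes were called in that comparison (22.7% higher and 18% lower). Fgf1 and Fgfr1 had differences of -0.28 ± 0.12 (adjusted p = 0.0662) and 0.24 ± 0.10 (adjusted p = 0.0528). Without array P5, 21% O2, SCR replicate 4, 1 gene was called.

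The other parts of the pathway were followed through 6 lists with 73 genes in all, of which 60 were tested at P5 and 63 at P14. In SCR mice at P5, 18 were higher, 11 lower and 31 not called in 85% O2, and at P14 23 were higher, 17 lower and 23 not called. These shares lie beside 43.9% and 60.8% for all probes. In antimiR-34a mice 9 were higher, 12 lower and 39 not called at P5, and 27 were higher, 19 lower and 17 not called at P14. Of all probes, 46.6% and 65.5% were called there. The lists below are given for SCR mice unless antimiR-34a is named.

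Feedback inhibitors, which damp signalling downstream of the receptors, included 2 genes that fell at both ages. Spry4, a Sprouty inhibitor, stood at -2, -1.75, -1.64 and -1.98 in 21% O2 and at -3.49, -4.01, -3.59 and -3.66 in 85% O2 at P5. It fell by 1.84 ± 0.14 at P5 (adjusted p = 2.56e-07) and by 1.57 ± 0.12 at P14 (adjusted p = 2.15e-07), with no overlap of groups at either age. Il17rd, the membrane inhibitor also called Sef, fell by 0.51 at P5 (adjusted p = 1.81e-05) and by 1.44 at P14 (adjusted p = 1.04e-07). Spry1 went the other way at the first age, rising by 0.36 at P5 (adjusted p = 0.00216) and falling by 0.88 at P14 (adjusted p = 2.73e-07), where all hyperoxic lungs lay between 3.13 and 3.37 and all normoxic lungs between 4.11 and 4.19. Of 10 inhibitors, 8 were tested at P5 (3 higher, 2 lower, median -0.01) and 9 at P14 (1 higher, 3 lower, median -0.05). The 1 higher at P14 was Spred3, above background in no normoxic lung and in 4 hyperoxic ones, at least 2.81-fold higher in the main fit (adjusted p = 0.00152). It entered the test through the hyperoxic lungs, so this p sets signal against background. The size of its rise was not settled, at 0.67 to 2.5 over 11 alternatives, all 11 calling it. In antimiR-34a mice the inhibitors had 0 higher and 4 lower of 8 at P5 (median -0.3). At P14 they had 2 higher and 3 lower of 9 there (median -0.08).

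Response genes, which ERK signalling and the ETS factors turn on, gave 2 higher and 1 lower of 8 at P5 (median 0.04) and 4 higher and 2 lower of 8 at P14 (median 0.36). Ccnd1, the D-type cyclin of G1, rose by 1.01 at P5 (adjusted p = 2.73e-08) and 1.80 at P14 (adjusted p = 2.02e-09). Fosl1, an AP-1 subunit, was above background on 4 of 4 hyperoxic and 1 of 4 normoxic arrays at each age. It was called higher at P5 and at P14 (adjusted p = 4.67e-05 and 9.47e-07) and in 11 of 11 alternatives, but the size of its rise was not settled, at 0.77 to 2.86 at P5 and 1.89 to 4.84 at P14 over these. The 3 ETS factors of the PEA3 group split at P14. Etv4 stood at 0.31, 0.37, 0.46 and 0.34 in 21% O2 and 2.38, 2.36, 2.39 and 2.59 in 85% O2, a rise of 2.06 (adjusted p = 9.7e-09), while Etv5 fell by 0.48 (adjusted p = 0.000413) and Etv1 fell by 1.16. Neither Etv4 nor Etv5 was called at P5 (-0.26 and -0.09, adjusted p = 0.157 and 0.311).

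Co-receptors and binding proteins gave 4 higher and 2 lower of 10 at P5 (median -0.07) and 6 higher and 2 lower of 11 at P14 (median 0.34). Fgfbp1, which releases FGFs from matrix, rose by 1.57 at P5 (adjusted p = 5.99e-06) and 0.56 at P14 (adjusted p = 0.00173). Sdc1, a heparan sulfate carrier of epithelium, rose by 0.75 and 1.15 (adjusted p = 7.37e-07 and 4.47e-06). Among the 12 heparan sulfate enzymes, 3 were higher and 1 lower at P5 (median 0.12) and 4 higher and 2 lower at P14 (median -0.10). Sulf2, which trims sulfate from heparan chains, rose by 2.15 at P5 and 1.89 at P14 (adjusted p = 9.2e-07 and 3.43e-08), with normoxic levels of at most 0.67 and hyperoxic levels of at least 2.04 over both ages.

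Of the signal relay proteins, 14 of 15 had a probe and were tested, with 5 higher and 2 lower at P5 (median 0.07) and 6 higher and 5 lower at P14 (median 0.01). Frs3, an adaptor that docks on the receptors, was faint and called lower at both ages. At P5 (adjusted p = 0.00213) 3 of 4 hyperoxic arrays were above background, and the difference was -1.96 with all arrays and -1.42 without the fourth, replicate 2 at -7.98. At P14 Frs3 was at least 1.88-fold lower, where no hyperoxic array was above background (adjusted p = 0.000104). With the normexp background correction the Frs3 differences were -0.55 at P5 and 0.00 at P14, the latter not called (adjusted p = 0.991), and 10 of 11 alternatives called it at each age. Gab1, the docking partner of Grb2, rose by 0.51 at P5 (adjusted p = 0.00376) and fell by 0.59 at P14 (adjusted p = 0.000125).

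The other 16 FGF ligands were mostly faint, with 8 tested at P5 (1 higher, 3 lower, median -0.32) and 9 at P14 (2 higher, 3 lower, median 0.00). Fgf8 fell by 0.83 at P5 (adjusted p = 0.00194). At P14 its difference was also -0.83 (adjusted p = 0.0487), but only 5 of 12 alternatives called it (-1.29 to -0.38, adjusted p up to 0.278). Fgf11, an intracellular family member, rose by 1.05 at P14 (adjusted p = 6.37e-06). At P5 its difference was 0.42 (adjusted p = 0.0165), but the mean of its probes gave -0.01 (adjusted p = 0.979). Fgf16 was above background at P14 in 4 of 4 normoxic lungs and in none of the hyperoxic ones, at least 3.49-fold lower there (adjusted p = 8.59e-06), and 10 of 11 alternatives called it (-4.02 to -0.41, adjusted p up to 0.233). For Fgf6 and Fgf23 the probes disagreed in direction at P14, with 0.64 and -2.21 by the brightest probe and -2.06 and 1.33 by the mean of all probes.

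**Figure D4:**
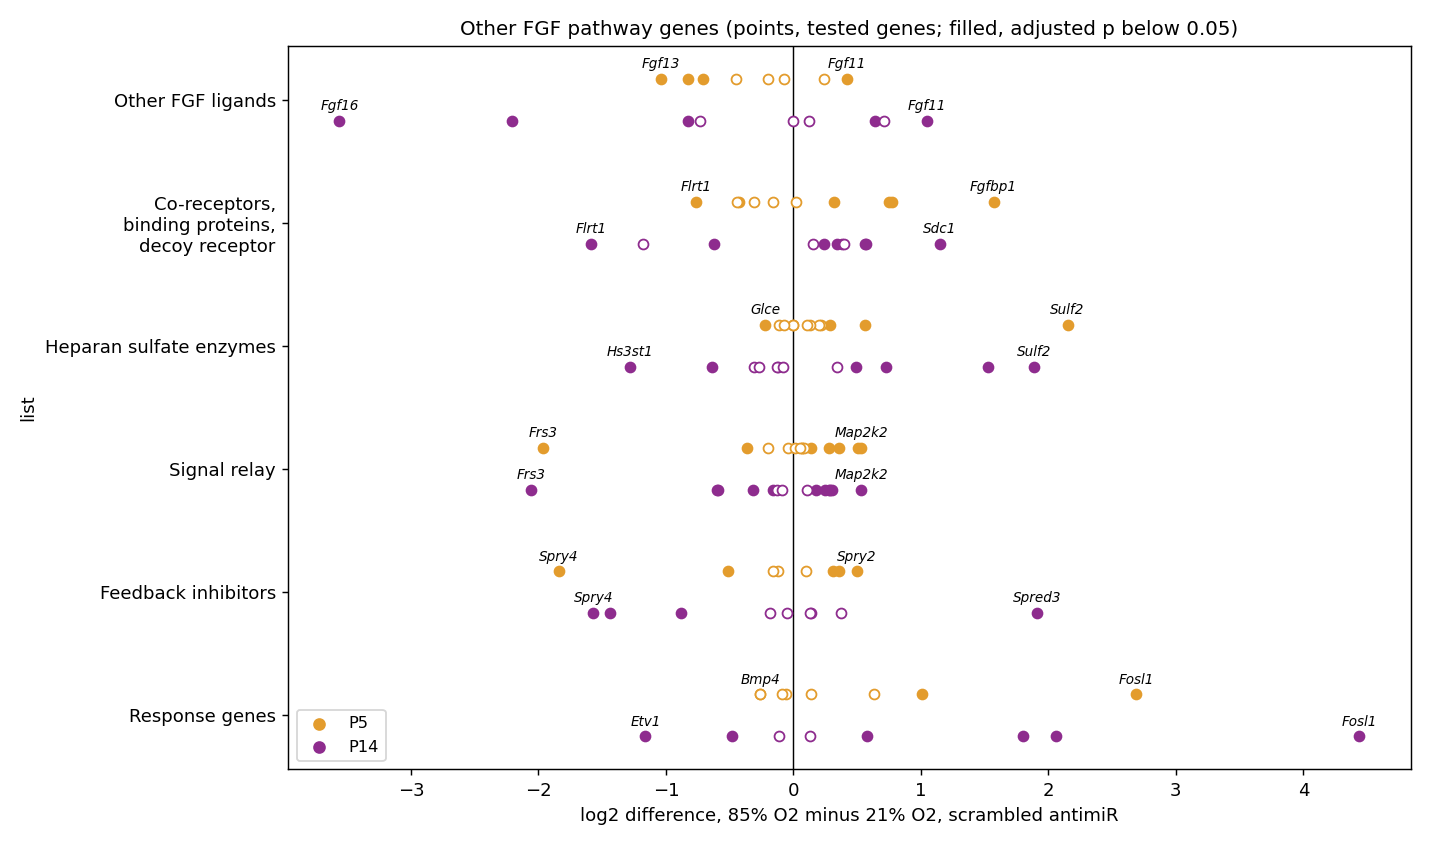
Log2 difference of 85% O2 against 21% O2 in scrambled antimiR mice at P5 and P14 for the tested genes of 6 lists of the FGF pathway, 1 point per gene. Spry4 and Il17rd lie below 0 at both ages and Sulf2, Ccnd1 and Fosl1 above it, while Etv4 is called at P14 alone.

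Markers of cell types moved with oxygen too, and their part in the values above was not tested. All 3 macrophage markers tested were higher in 85% O2 at both ages, with mean list levels of 1.35 to 1.67 against 2.25 to 2.90 at P5 and 1.80 to 1.91 against 3.02 to 3.62 at P14. Of 5 myofibroblast markers, 3 were lower at P5, while at P14 there were 3 higher and 1 lower. Lipofibroblasts, which make Fgf10, had 2 of 5 markers higher at P5, while at P14 they had 2 higher with 1 lower. Of 5 type II markers, 1 was higher at P5, and at P14, the age at which Fgfr4 fell, 3 were lower and 1 was higher. At both ages 4 of 5 type I markers were higher. Adipocyte markers at P14 were lower for 5 of 5 genes, the mean of the list lying between -1.08 and 1.81 in 21% O2 and between -7.00 and -6.43 in 85% O2, where 1 of the 5 genes was above background. Skeletal muscle markers were lower for 4 of 8 genes at P5 and 5 of 8 at P14, and heart muscle markers for 4 of 5 (median -1.88) and 2 of 5 (median -1.61). Thymus markers had none called of 4 tested at P5 and 4 of 5 lower at P14 (median -2.15), the mean of the list lying between -3.31 and -2.69 in 21% O2 and between -5.16 and -4.22 in 85% O2. Mesothelium, a source of Fgf9, had none of 5 markers called at P5, and at P14 had 2 lower and 1 higher (median -0.77). Without the 6 arrays that stood apart, the calls of Fgf10 and Fgfr3 at both ages and of Fgf7, Fgf18 and Fgfr4 at P14 were kept.

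AntimiR-34a binds the mature strand of the microRNA, whose sequence is shown because its seed, bases 2 to 8, in capitals, is what pairs with target messages:
mmu-miR-34a-5p (chr4:150068473-150068494, plus strand, GRCm38.p6, RefSeq): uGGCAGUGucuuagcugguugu
The site that pairs with this seed, CACTGCC, was in 0 of the 18 member probes and in 250 of the 55681 probes on the array (0.449%). A probe covers 60 bases of a message, so its absence says nothing of the rest of these genes.

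No member was called between antimiR-34a and SCR at any age or oxygen level by limma. At P5 in 21% O2, 0.125% of all probes were called. An unadjusted p below 0.05 was found for 3 of 10 genes and for 17.6% of all probes. Fgfr1 stood at 3.90, 3.84, 3.86 and 3.84 in SCR and at 4.08, 4.07, 4.13 and 4.11 in antimiR-34a mice, a difference of 0.24 ± 0.07 (unadjusted p = 0.00358, adjusted p = 0.138) with no overlap. Fgf2 gave 0.65 ± 0.20 (adjusted p = 0.151) and Fgfr3 0.20 ± 0.06 (adjusted p = 0.16), again with no overlap, in a comparison in which 15.4% of all probes had groups that did not overlap. The second probe named Fgfr3, annotated to chromosome 1, gave -0.23 (adjusted p = 0.315), against the direction of the first, and the mean of both was -0.01. All 4 antimiR-34a arrays were dimmer (75th percentile, log2, 9.60 to 9.72) than the 4 SCR arrays (9.90 to 10.12), and the Fgf2 difference was 0.21 (adjusted p = 0.317) with brightness as a covariate. Fgf2 was called here when only the 2 groups were fitted (1.17% of all probes called), and Fgf2 and Fgfr1 with array weights (2.54% of all probes called).

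At P5 in 85% O2 the lowest adjusted p of a member was 0.307 (Fgf7, -0.21), 1 of 10 genes and 13.1% of all probes had an unadjusted p below 0.05, and 0.064% of all probes were called. At P14 in 85% O2, 2 of 10 genes and 16.5% of all probes had an unadjusted p below 0.05, and 2.67% of all probes were called. Fgf9 stood there at -0.15, -0.58, -0.30 and -0.41 in SCR and at -0.12, 0.13, 0.11 and 0.12 in antimiR-34a mice, a difference of 0.42 ± 0.18 (adjusted p = 0.24) with every antimiR-34a lung higher, where 9.53% of all probes had groups that did not overlap. At P14 in 21% O2, 1 of 10 genes and 10.5% of all probes had an unadjusted p below 0.05, and 0% of all probes were called. This gene was Fgf9 as well, with 0.61 ± 0.18 (unadjusted p = 0.00368, adjusted p = 0.474). In this comparison Fgf9 and Fgf2 were called in 2 of 12 alternatives, with 0.81 (adjusted p = 0.00132) and 0.67 (adjusted p = 0.0118) under array weights and 0.98 (adjusted p = 0.00136) and 0.73 (adjusted p = 0.0199) without the 6 arrays, and Fgf9 also without SCR replicate 4 (0.80, adjusted p = 0.0455). Under array weights 25.9% of all probes were called, and without the 6 arrays 14.4%, so that 2 of 10 members lay near the background. Fgf10 differed little with antimiR-34a, by -0.09, -0.07, -0.02 and -0.03 in turn for 21% and 85% O2 at P5 and at P14 (adjusted p = 0.574, 0.737, 0.957 and 0.885). The methods' t-test called 0 members in each of these 4 comparisons. It called at most 0.00278% of all probes in them, so this count says little about the members.

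Whether the effect of antimiR-34a differed between the oxygen levels was tested as an interaction, which called 0 members at P5 (2 with an unadjusted p below 0.05, Fgfr1 at -0.37 ± 0.10 and Fgfr3 at -0.27 ± 0.09) and 0 at P14 (none). Over all probes 0.0529% and 0.107% were called, and 10.8% and 15% had an unadjusted p below 0.05. Among the pathway lists, Spry1 rose with antimiR-34a in 21% O2 at P5 by 0.50 (adjusted p = 0.031), its interaction being -0.78 (adjusted p = 0.0184), calls kept in 8 of 12 and 9 of 11 alternatives (adjusted p up to 0.131 and 0.0938). In the same comparison Flrt3, a membrane protein that binds Fgfr1, differed by 0.49 (adjusted p = 0.0452), a call kept in 7 of 12 (adjusted p up to 0.148). Egr1, an immediate early gene, differed by 1.27 in 85% O2 at P14 (adjusted p = 0.042), which 4 of 12 alternatives called (adjusted p up to 0.391).

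**Figure D5:**
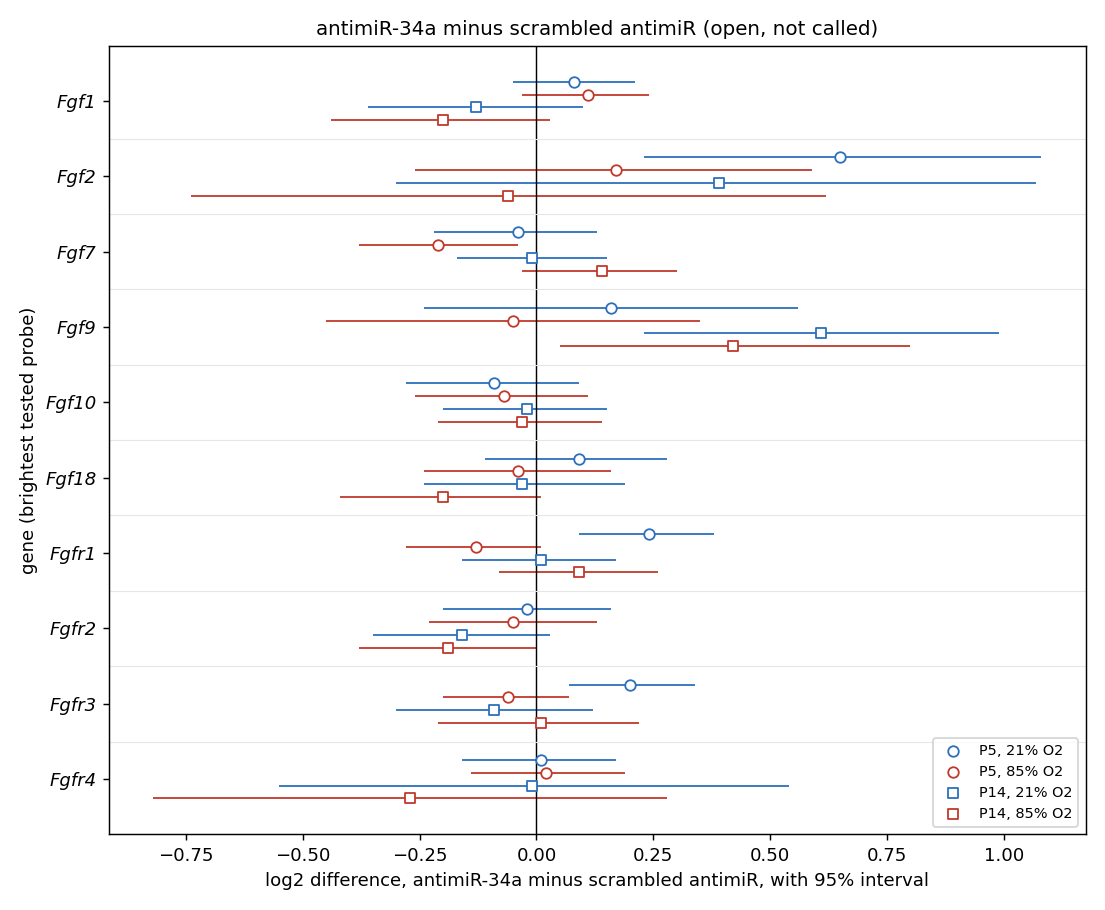
Log2 difference of antimiR-34a against scrambled antimiR for each of the 10 genes in 21% and 85% O2 at P5 and P14, with 95% confidence intervals from limma (4 mice per group). No member was called, and the points farthest from 0 are Fgf2 at P5 and Fgf9 at P14 in 21% O2.

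Likeness of pattern was taken as Pearson's r over the 32 arrays with 20562 candidate probes of other genes, as a description without a test, since arrays of a group share oxygen, age and slide. Fgf10 was most like Hpca (r = 0.945), Hs3st3a1 (0.938) and Rasl2-9 (0.93), whereas r within groups was 0.09, 0.224 and -0.106. Fgfr4 was most like Fancc (0.949), Shisa2 (0.905) and Wdr86 (0.9), and there r within groups was 0.914, 0.905 and 0.85, with array P14, 85% O2, A34a replicate 2 low in Fgfr4. Fgfr3 was most like Fendrr (0.905), Ago4 (0.899) and Myh7 (0.857), Fgf7 like Sult1a1 (0.891), Fgf18 like Plxnc1 (0.891) and Fgfr1 like Grem1 (0.942). For Fgf2 and Fgf9 the first were Actg1 (0.936) and Katnal1 (0.897). Fgfr2 had the weakest likeness among the members, Dis3l2 at 0.667.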

How the data were processed

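Whole-lung RNA of 32 mice in 8 groups of 4, read from the labels, was hybridised to 1-colour 60-base arrays. Per the file headers, the deposited processed intensity of each spot came from Agilent Feature Extraction 10.7.3.1, background-subtracted and not normalized between arrays. The authors' log2 values for the series served as an alternative. Here the log2 processed signal minus the 75th percentile of each array was used, without control and outlier spots. A probe was tested where 1 group or more had it well above background in all 4 mice (35944 probes for P5, 38320 for P14, 38982 for both ages together). R 4.3.3 with limma 3.58.1 was used, fitted to the 16 arrays of an age, or to all 32, with adjustment over all tested probes at 0.05. The fit was tested on simulated data. No depth applies to arrays, so the 4 mice per group limit the precision. Named genes were all members, called list genes by fixed lists, and the 3 most alike genes of each member, of which the text gives all 3 for Fgf10, Fgfr3 and Fgfr4 and the first for the others, with those of Fgf1 not reported here. The members and lists were chosen with earlier results of these data known. Probe positions are mm9, RefSeq sequences GRCm38.p6. Alternatives were normexp (offset 50), quantile normalization, filters, array weights, the methods' t-test, a replicate block, other samples or probes, and each array left out.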

Additional observations from a re-analysis of the deposited data

Results flagged for a closer look

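In 10 of 80 sets of 4 mice (10 genes in 8 groups) 1 mouse lay far from the other 3 by Dixon's test, which by chance flags about 5% of sets. These were Fgf1 in P5, 85% O2, SCR replicate 4 (log2 level 4.33), Fgf2 in P5, 85% O2, A34a replicate 3 (-2.75, the dimmest array), Fgf7 in P5, 85% O2, A34a replicate 2 (0.45) and in P14, 21% O2, SCR replicate 2 (0.95), and Fgf9 in P14, 85% O2, A34a replicate 1 (-0.12). The others were Fgf10 (-0.19) and Fgf18 (3.01) in P14, 21% O2, A34a replicate 2, Fgfr1 in P14, 85% O2, A34a replicate 2 (4.83) and in P14, 21% O2, SCR replicate 3 (4.36), and Fgfr4 in P5, 85% O2, SCR replicate 1 (3.83).

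The effect of 85% O2 in scrambled antimiR mice differed between P5 and P14, by the interaction in limma, for Fgf7 (-0.30), Fgfr3 (-0.65) and Fgfr4 (-0.74), of which the call of Fgf7 was kept in 8 of 11 alternatives and those of Fgfr3 and Fgfr4 in 11 of 11. Age and slide cannot be told apart in these differences.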

How the results depend on the processing

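The calls of Fgf10 and Fgfr3 at both ages and of Fgf7 and Fgf18 at P14, 85% against 21% O2 in SCR mice, were kept in 12 of 12 alternatives. Replicate numbers did not pair the mice (median r of same-numbered deviations 0.009 at P5 and 0.04 at P14), and with the replicate block the counts of members called were 2 at P5 and 6 at P14 in SCR mice and 3 (without Fgf7) and 5 in antimiR-34a mice. Of all probes, the fit with that block called 42.7% and 60.8% in SCR mice and 45.2% and 65.6% in antimiR-34a mice. Counts moved by more than 1.5 times as follows. The age comparison had 4 by the methods' t-test (without Fgf9, Fgf10 and Fgf18), which called 40.3% of all probes. Oxygen in SCR mice at P5 had 5 by the mean of all tested probes, by which 46.4% of all genes were called. With array weights, antimiR-34a in 21% O2 had 2 at P5 and 2 at P14, where 2.54% and 25.9% of all probes were called. It had 1 at P5 with only the groups compared (1.17% of all probes). Without the 6 arrays that stood apart, a set chosen after seeing the data, it had 2 at P14 (14.4% of all probes). The oxygen effect between ages had 5 with array weights (48.2% of all probes), and the interaction at P14 had 1 (Fgf2) without those 6 arrays (14.4% of all probes). Leaving out 1 array gave 2 to 3 members at P5 and 5 to 7 at P14 for oxygen in SCR mice, 3 to 5 and 4 to 7 in antimiR-34a mice, 7 to 7 for age, 1 to 4 between ages (1 without P5, 21% O2, SCR replicate 4), and 0 to 1 for antimiR-34a in 21% O2 at P5 (1 without P5, 85% O2, A34a replicate 3) and at P14 (1 without P14, 21% O2, SCR replicate 4). By the mean of probes, direction turned at P14 for Fgfr1 (-0.21 in SCR and -0.23 in antimiR-34a mice), Fgfr2 (-0.12), Fgf6 (-2.06), Fgf23 (1.33) and Mapk3 (-0.04), and at P5 for Fgf11 (-0.01). Leaving out 1 array turned uncalled P5 values of Fgfr1 (-0.07 to 0.05), Fgf9 (-0.07 to 0.15), Fgf7 (-0.11 to 0.02) and Fgfr4 (-0.00016 to 0.11). The cause was not tested. Of 868 alternative values of list genes, 775 kept direction and call, 89 lost the call and 4 turned. Fgfr4 in SCR mice at P14 lost its call without the filter on dim probes (adjusted p = 0.0535). Over all probes, antimiR-34a calls ranged over the alternatives from 0% to 25.9% in 21% O2 at P14 (0% with all arrays, 25.9% with array weights and 14.4% without the 6 arrays), from 0.00278% to 2.54% in 21% O2 at P5, from 0% to 7.75% in 85% O2 at P5 and from 0% to 3.74% in 85% O2 at P14, and the interactions from 0.0111% to 0.161% (P5) and from 0% to 14.4% (P14). Scaling moved the median of all probes by over 0.1, for example from -0.118 to 0.0818 with quantile normalization for oxygen in antimiR-34a mice at P14. A slide block could not be fitted because slide is a sum of groups, and the methods' t-test was not run for interactions. Dim probes (Fgf2, Fgf16, Fosl1, Frs3, Spred3) limit what their values can show. In SCR mice Fgf16, Frs3 and Spred3 at P14 and Fosl1 at both ages were tested through the oxygen level at which they were high. Their p values there set signal against values at or near background.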

Other observations

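Further genes around the receptors were called between 85% and 21% O2 in scrambled antimiR mice by limma. Hs6st2, which adds 6-O sulfate to heparan chains, rose by 0.56 at P5 and by 1.53 at P14. Hs3st1, a 3-O sulfotransferase, had a difference of 0.00 at P5, not called, and fell by 1.28 at P14. Ext2, a polymerase of the heparan chain, fell by 0.64 at P14, its P5 difference of 0.29 being called in 7 of 12 alternatives (adjusted p up to 0.0861), while Ext1 rose by 0.73 at P14. Sdc4, a syndecan, rose by 0.32 and 0.57, and Gpc3, a glypican, fell by 0.43 at P5 and rose by 0.34 at P14. Flrt1 fell by 0.76 and 1.59, the P5 call being kept in 9 of 12 alternatives, and Gpc3 gave -0.50 to -0.18 (P5) and 0.18 to 0.43 (P14) over 12. In the relay, Map2k2, a kinase above ERK, rose by 0.53 at both ages, and Ptpn11, the phosphatase SHP2, rose by 0.28 and 0.29 (0.08 to 0.31 at P14 over 12 alternatives, 10 of them calling it).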
